A study of Mus musculus with 12 samples.

Results

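Prostanoids are the lipid mediators that cyclooxygenases make from arachidonic acid, and 10 genes for their synthesis and sensing were followed in mouse bone marrow-derived macrophages (BMDMs). The genes were taken by symbol, 10 of the 55335 genes in the expression table, and comprised the phospholipase Pla2g4a, the cyclooxygenases Ptgs1 and Ptgs2, the terminal synthases Ptges, Ptges2, Tbxas1 and Hpgds, and the receptors Ptger2, Ptger4 and Ptgir. RNA-seq was made of 12 libraries, 3 for each of 4 groups, namely BMDMs of wild-type and of Nlrp3-/- mice, each as a control and with LPS+ATP. The design asked how RNA levels change when lipopolysaccharide (LPS) followed by ATP activates the NLRP3 inflammasome, and how this differs in cells without NLRP3. All BMDMs were grown with M-CSF from bone marrow of C57BL/6 mice, aged 8 weeks, for 7 days. Control cells received neither agent, and stimulated cells received LPS for 4 hours and then ATP for 30 minutes per the sample labels, whereas the study's methods name longer times. The Nlrp3-/- mice carried a deletion in every cell and not only in macrophages. Nothing in the labels says that the 3 libraries of a group came from separate mice, so the p-values measure the spread between these libraries, which may be technical.

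Cytosolic phospholipase A2 frees arachidonic acid from membranes, and the cyclooxygenases turn it into prostaglandin H2. Terminal synthases then convert prostaglandin H2 into prostaglandin E2, prostaglandin D2 or thromboxane, which leave the cell and act on G protein-coupled receptors. In macrophages Ptgs1 is known as the constitutive cyclooxygenase gene and Ptgs2 and Ptges as genes induced through Toll-like receptors, of which LPS engages TLR4.

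The promoter windows of both cyclooxygenases and of Ptges are shown because the opposite stimulation effects of the cyclooxygenases and the parallel ones of Ptgs2 and Ptges are compared below. Each window runs 5′ to 3′ on the gene's strand from 250 bases before to 50 bases after the RefSeq start of transcription on GRCm38.p6, and capitals mark motif matches found on either strand.
Ptgs2: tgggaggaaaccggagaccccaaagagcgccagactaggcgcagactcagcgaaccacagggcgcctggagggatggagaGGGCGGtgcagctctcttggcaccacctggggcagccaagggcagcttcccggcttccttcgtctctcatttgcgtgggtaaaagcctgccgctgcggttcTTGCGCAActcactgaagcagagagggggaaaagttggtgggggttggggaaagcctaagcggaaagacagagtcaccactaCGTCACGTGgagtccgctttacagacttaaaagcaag
Ptges: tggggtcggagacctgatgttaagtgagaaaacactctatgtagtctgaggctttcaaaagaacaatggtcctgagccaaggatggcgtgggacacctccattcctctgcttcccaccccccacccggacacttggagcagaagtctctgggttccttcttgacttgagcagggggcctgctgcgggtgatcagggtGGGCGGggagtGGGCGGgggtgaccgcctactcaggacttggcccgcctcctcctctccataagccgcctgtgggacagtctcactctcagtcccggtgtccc
Ptgs1: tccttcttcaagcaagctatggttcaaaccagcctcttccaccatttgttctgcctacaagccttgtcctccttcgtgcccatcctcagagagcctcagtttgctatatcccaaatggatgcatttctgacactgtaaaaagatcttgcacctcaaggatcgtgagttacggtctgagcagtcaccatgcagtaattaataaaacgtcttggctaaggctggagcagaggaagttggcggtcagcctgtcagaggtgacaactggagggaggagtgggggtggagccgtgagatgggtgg
The windows lie at chr1:150099781-150100080 on the plus strand for Ptgs2, chr2:30903248-30903547 on the minus strand for Ptges and chr2:36230176-36230475 on the plus strand for Ptgs1. A set of 6 motifs was searched on both strands: the TATA box (TATAAA), the core of a cAMP response element (CGTCA), the E-box (CACGTG), a palindromic C/EBP site (TTGCGCAA), the GC box (GGGCGG) and the kappa-B consensus. The Ptgs2 window held the GC box, the C/EBP site, the cAMP response element core and the E-box, starting at -170, -69, 14 and 17 from the start of transcription, and the core and the E-box share their bases CA. The C/EBP site in this form was found in 60 of 32851 mouse promoter windows searched (0.183%), the core in 20.8%, the E-box in 7.15% and the GC box in 35.7%. The Ptges window held 2 GC boxes, starting at -53 and -42, and the Ptgs1 window held none of the 6 motifs. The TATA box was found in 13.6% of all windows and the kappa-B consensus in 8.46%, and neither of them in these 3 windows. Among the 11 windows of all 10 genes the kappa-B consensus matched in none, and the TATA box matched for Pla2g4a and Tbxas1. The E-box also matched for Ptges2, and the GC box also for Ptgir and Ptger4. The Pla2g4a match started at -200, on the opposite strand, in the window at chr1:149922390-149922689, and the other window of Pla2g4a held no match. A match describes the sequence only.

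Expression was given as FPKM, which counts fragments relative to gene length and library size. Differences were fitted with limma on log2(FPKM + 1) over the 12622 genes that reached 1 FPKM in at least 3 libraries, and all 10 genes did so. A gene was called when its Benjamini-Hochberg adjusted p was under 0.05 and its log2 fold change at least 1 in either direction, and this scale understates changes from low FPKM. Summed FPKM ran from 283278 to 299393 per library, and the depth in reads is unknown from this unit. Nlrp3 itself was between 9.24 and 10.1 FPKM in wild-type control BMDMs, between 32.1 and 33.6 FPKM in wild-type LPS+ATP BMDMs and listed at 0 in all 6 Nlrp3-/- libraries. The 7 macrophage markers were present in all groups, and Lyz2 (9212 to 18839 FPKM) made up most of their sum. Of the 7, 5 were lower in every Nlrp3-/- control library than in every wild-type control library and 1 was higher, and with LPS+ATP 6 were lower. Cd68, for example, had a mean of 877 FPKM in Nlrp3-/- and 1450.4 FPKM in wild-type control BMDMs. Itgam was counted as the sum of its entries, each of which overlapped between the genotypes. Of all tested genes, 56.0% did not overlap between the genotypes without stimulation and 57.9% with LPS+ATP, in either direction. The genotypes also differed in the sex of the cells, with Xist at 32.8 FPKM or more in the Nlrp3-/- libraries and at most 0.0416 FPKM in the wild-type libraries, and in Nnt, a gene that varies between C57BL/6 substrains. Effects of genotype, sex and substrain cannot be told apart here. The sum of 8 fibroblast markers was 163 to 168 FPKM in wild-type control and 1189 to 1206 FPKM in Nlrp3-/- control BMDMs. In bulk RNA, more cells of a type and more RNA per cell cannot be told apart either.

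Stimulation of wild-type BMDMs with LPS+ATP raised 4 and lowered 2 of the 10 genes, where 8.25% of all tested genes rose, 11.2% fell and 19.4% were called either way. The 4 were Ptgs2, Ptges, Pla2g4a and Ptgir, and the 2 were Hpgds and Tbxas1. In Nlrp3-/- BMDMs LPS+ATP raised the same 4 genes and lowered Hpgds and Ptgs1, where 6.64% of all tested genes rose, 8.21% fell and 14.8% were called either way. Without the fold limit, 9 of the 10 genes in wild-type and 8 in Nlrp3-/- BMDMs had an adjusted p under 0.05, near the 76.4% and 74.3% of all tested genes. The median log2 fold change of the 10 genes was 0.13 in wild-type and -0.01 in Nlrp3-/- BMDMs, beside -0.26 and -0.24 over all tested genes. With a pseudocount of 0.1, 4 were called higher and 4 lower in each genotype, since Ptgs1 and Ptger4 in wild-type and Tbxas1 and Ptger4 in Nlrp3-/- BMDMs then passed the fold limit. Of all 12622 tested genes, 1344 were then called higher and 2358 lower in wild-type, and 1073 and 1774 in Nlrp3-/- BMDMs. The 2 stimulation comparisons share no library. Ptger2, Ptger4 and Ptges2 were not called in either genotype.

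Between the genotypes without stimulation, Ptgs2 and Ptges were called higher in Nlrp3-/- BMDMs, 2 of 10 genes where 6.02% of all tested genes were called higher and 6.71% either way, and 0 of 10 were called lower (background 0.689%). Without the fold limit 6 of the 10 had an adjusted p under 0.05, beside 47.8% of all tested genes. With LPS+ATP 0 of the 10 genes were called by limma between the genotypes, where 4.48% of all tested genes were called higher, 0.57% lower and 5.05% either way. With no fold limit 6 of the 10 passed there at an unadjusted p under 0.05 and also at an adjusted p under 0.05, beside 48.5% of all tested genes at the latter. Of these 6 Hpgds was higher and the other 5 lower in Nlrp3-/- BMDMs. Of all 12622 tested genes 4531 were higher and 1593 lower at that adjusted p. The stimulation effect differed between the genotypes for Ptgs2 and Ptges, 2 of 10 genes where the interaction was called for 2.15% of all tested genes, 0.721% above 0 and 1.43% below 0. Without the fold limit 5 of the 10 had an adjusted p under 0.05, beside 27.7% of all tested genes.

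**Figure D1:**
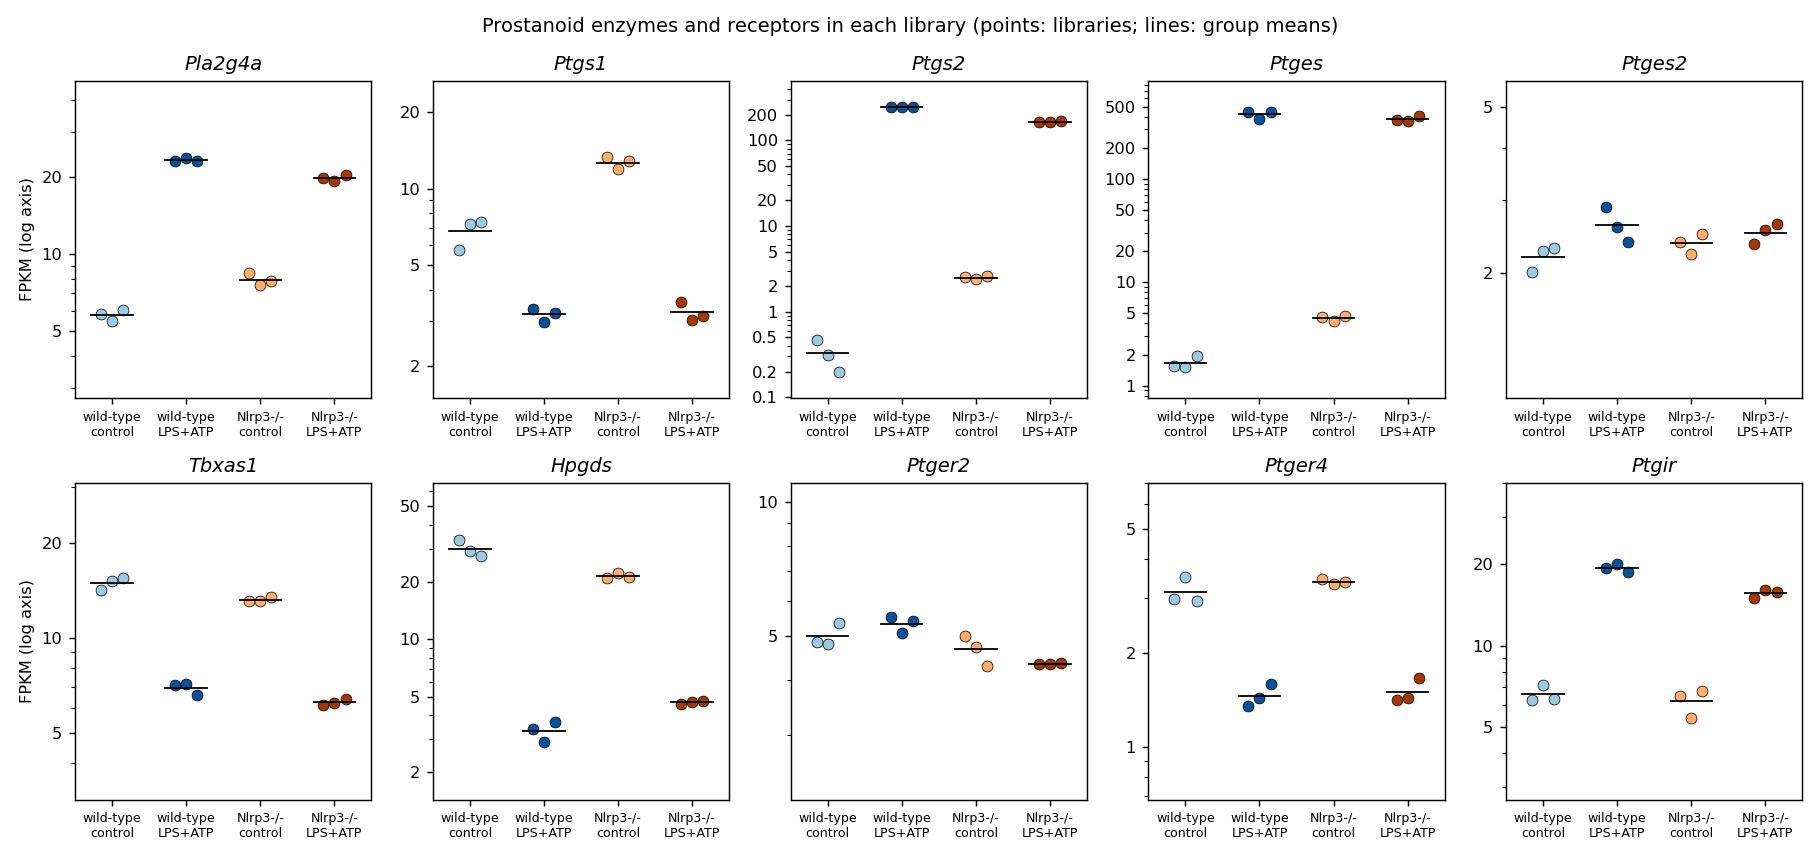
FPKM of the 10 genes in each of the 12 libraries on log axes, with points for libraries and a line for the mean of the 3 libraries of a group. Ptgs2 rose from at most 0.472 FPKM to at least 243 FPKM in wild-type BMDMs and from at most 2.58 FPKM to at least 163 FPKM in Nlrp3-/- BMDMs, while Ptger2 stayed between 4.30 and 5.54 FPKM in all libraries.

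Pla2g4a (ENSMUSG00000056220, minus strand of GRCm38 chr1:149829618-149961290) encodes cytosolic phospholipase A2, which frees arachidonic acid for the pathway. Its 3 libraries were at 5.82, 5.46 and 6.02 FPKM in wild-type control and at 23.0, 23.7 and 23.2 FPKM in wild-type LPS+ATP BMDMs. In Nlrp3-/- BMDMs they were at 8.38, 7.55 and 7.85 FPKM in the control and at 19.8, 19.3 and 20.3 FPKM with LPS+ATP. The 4 groups did not overlap, and the order of the genotypes was opposite in the 2 states. The rise with LPS+ATP was 1.85 ± 0.05 (SE) on the log2 scale in wild-type BMDMs (adjusted p = 1.23e-11, limma) and 1.22 ± 0.05 in Nlrp3-/- BMDMs (adjusted p = 6.22e-10, limma). The interaction was -0.62 (95% confidence interval -0.77 to -0.48) with an adjusted p of 3.65e-05 in limma, under the fold limit. The genotype difference was 0.40 (adjusted p = 2.09e-05, limma) in the control and -0.22 (adjusted p = 0.00167, limma) with LPS+ATP.

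Ptgs2 (ENSMUSG00000032487, plus strand of GRCm38 chr1:150100031-150108227), the inducible cyclooxygenase whose promoter window is shown above, had the largest stimulation effect of the 10 genes in wild-type BMDMs on the log2(FPKM + 1) scale. Its wild-type control libraries were at 0.472, 0.314 and 0.196 FPKM and its Nlrp3-/- control libraries at 2.52, 2.38 and 2.58 FPKM. With LPS+ATP the wild-type libraries were at 246, 243 and 246 FPKM and the Nlrp3-/- libraries at 163, 164 and 169.8 FPKM. Nlrp3-/- BMDMs were thus higher without stimulation and lower with it, with no overlap between the genotypes in either state. The ratio of the group means of LPS+ATP to control was 749 in wild-type and 66.5 in Nlrp3-/- BMDMs, and the wild-type ratio rests on a control level under 0.5 FPKM.

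On the log2 scale Ptgs2 rose by 7.54 ± 0.06 (SE) in wild-type BMDMs (adjusted p = 2.44e-15, limma) and by 5.58 ± 0.06 in Nlrp3-/- BMDMs (adjusted p = 2.55e-14, limma). The interaction was -1.96 (95% confidence interval -2.16 to -1.77) with an adjusted p of 1.10e-07 in limma. Its size depends on the low wild-type control level, and it was -3.22 with a pseudocount of 0.1 and -1.04 with a pseudocount of 5. The genotype difference was 1.40 (95% confidence interval 1.27 to 1.54, adjusted p = 8.87e-09, limma) without stimulation. It was 2.65 with a pseudocount of 0.1 and 0.49, under the fold limit, with a pseudocount of 5. With LPS+ATP it was -0.56 (95% confidence interval -0.70 to -0.43, adjusted p = 1.79e-05, limma), which is under the fold limit, and the ratio of the means was 0.676.

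Ptgs1 (ENSMUSG00000047250, plus strand of GRCm38 chr2:36230426-36252272) encodes the constitutive cyclooxygenase and had stimulation effects opposite in sign to those of Ptgs2. Wild-type libraries were at 5.75, 7.28 and 7.37 FPKM in the control and at 3.37, 2.99 and 3.23 FPKM with LPS+ATP. Nlrp3-/- libraries were at 13.3, 11.97 and 12.8 FPKM in the control and at 3.59, 3.04 and 3.16 FPKM with LPS+ATP. The genotypes were apart without stimulation and overlapped with it. The log2 fold change with LPS+ATP was -0.89 ± 0.09 (SE) in wild-type BMDMs (adjusted p = 2.05e-06, limma), under the fold limit, and -1.68 ± 0.09 in Nlrp3-/- BMDMs (adjusted p = 9.79e-09, limma), where it was called. With a pseudocount of 0.1 the wild-type value was -1.06 and was called as well. The interaction of -0.79 (adjusted p = 6.01e-04, limma) stayed under the fold limit. The genotype difference was 0.82 (95% confidence interval 0.63 to 1.01, adjusted p = 1.07e-05, limma) without stimulation. With LPS+ATP it was 0.02 (95% confidence interval -0.17 to 0.21), and its sign changed with the scaling between libraries.

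The FPKM of the 2 cyclooxygenases summed to 7.13 ± 0.784 in the wild-type and 15.2 ± 0.754 in the Nlrp3-/- controls (SD, 3 libraries each). After LPS+ATP the sum reached 248.5 ± 1.89 in the wild-type and 169 ± 3.41 in the Nlrp3-/- group (SD, 3 libraries each). Ptgs2 made up 4.77% ± 2.55 of it in wild-type control (range 2.60% to 7.58%) and 16.4% ± 0.414 in Nlrp3-/- control BMDMs (range 16.0% to 16.7%). With LPS+ATP its share was 98.7% ± 0.0674 and 98.1% ± 0.190 (SD, n = 3 in each group). The groups did not overlap in any of the 4 comparisons, and the two-sided exact permutation p was 0.1 in each (adjusted 0.1), the smallest that 3 against 3 libraries can give. Cyclooxygenase RNA was thus mostly Ptgs1 in both controls and nearly all Ptgs2 after LPS+ATP.

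**Figure D2:**
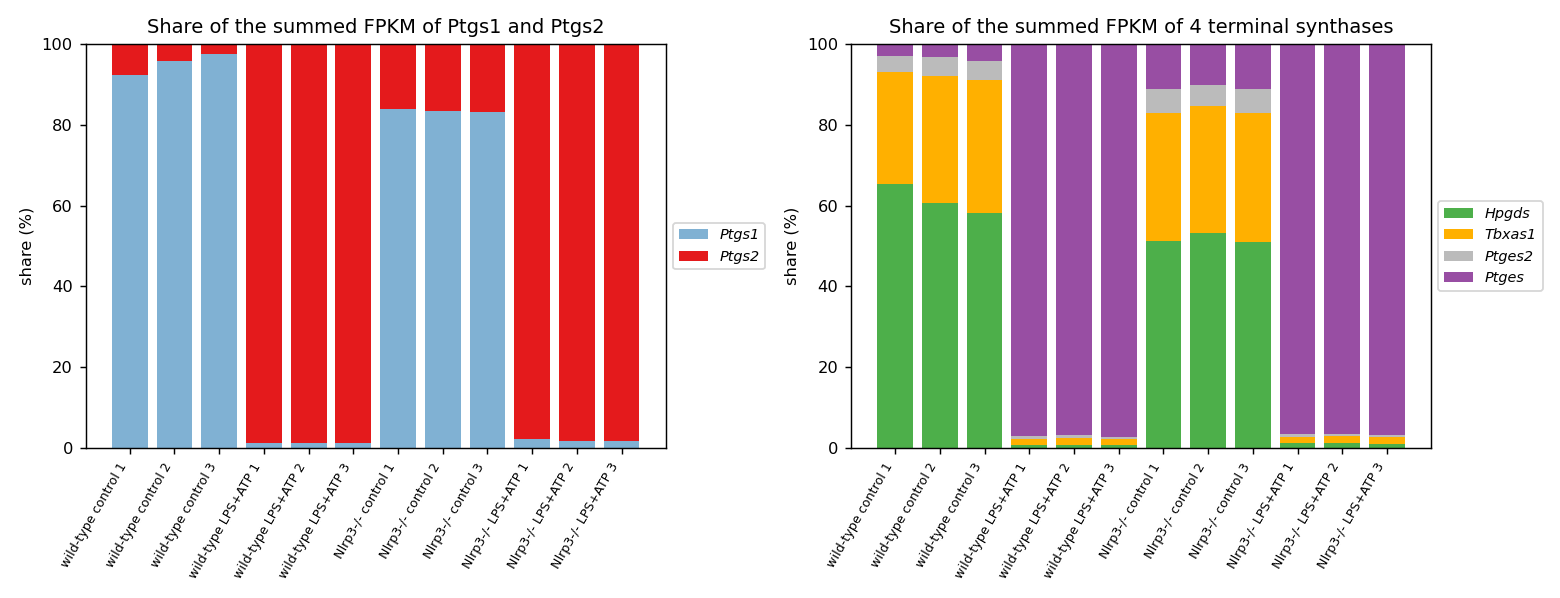
Share in percent of the summed FPKM taken by each cyclooxygenase gene (left) and by each of 4 terminal synthase genes (right) in the 12 libraries, as stacked bars from 0 to 100%. Ptgs2 rises from a group mean of 4.77% or 16.4% in the controls to 98.7% or 98.1% with LPS+ATP, and Ptges from 3.45% or 10.8% to 97.0% or 96.6%.

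Ptges (ENSMUSG00000050737, minus strand of GRCm38 chr2:30889471-30929863) encodes the inducible microsomal prostaglandin E synthase and was the highest of the 10 genes after LPS+ATP in both genotypes. Wild-type libraries were at 1.56, 1.52 and 1.94 FPKM in the control and at 441, 381 and 439.8 FPKM with LPS+ATP. Nlrp3-/- libraries were at 4.64, 4.23 and 4.68 FPKM in the control and at 369, 363 and 403 FPKM with LPS+ATP. The genotypes did not overlap without stimulation and overlapped with it.

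Ptges rose by 7.30 ± 0.07 (SE) on the log2 scale in wild-type BMDMs (adjusted p = 1.20e-14, limma), a ratio of means of 251. The rise in Nlrp3-/- BMDMs was 6.10 ± 0.07 (adjusted p = 5.58e-14, limma), a ratio of 83.8. The interaction was -1.20 (95% confidence interval -1.43 to -0.96, adjusted p = 1.23e-05, limma) and was not called with a pseudocount of 5, at -0.66. Without stimulation the genotype difference was 1.05 (95% confidence interval 0.88 to 1.21, adjusted p = 4.49e-07, limma). It lay just past the fold limit and was under it with upper-quartile scaling (0.98), median-ratio scaling (0.91) and a pseudocount of 5 (0.51). With LPS+ATP it was -0.15 (95% confidence interval -0.31 to 0.02, adjusted p = 0.127, limma), under the fold limit. Its adjusted p in limma ran from 0.00222 to 0.316 over the alternatives, with values of -0.27 (0.0122) under upper-quartile scaling, -0.34 (0.00222) under median-ratio scaling and -0.22 (0.0327) without wild-type LPS+ATP library 2. GENCODE places the gene Gm13400 on the same strand within the span of Ptges, and how reads shared by both were counted is not given in the sources used here.

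Ptges2 (ENSMUSG00000026820, plus strand of GRCm38 chr2:32395896-32405772), which encodes a second membrane-associated prostaglandin E synthase, ran between 2.01 and 2.89 FPKM over all 12 libraries. Its stimulation effect was 0.18 in wild-type BMDMs (95% confidence interval 0.03 to 0.32, adjusted p = 0.0268, limma) and 0.06 in Nlrp3-/- BMDMs (95% confidence interval -0.09 to 0.20, adjusted p = 0.435, limma). Wild-type control libraries (2.01, 2.26 and 2.30 FPKM) lay below the wild-type LPS+ATP libraries (2.89, 2.59 and 2.38 FPKM), and the Nlrp3-/- groups overlapped.

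Hpgds (ENSMUSG00000029919, minus strand of GRCm38 chr6:65117293-65144908), the hematopoietic prostaglandin D synthase, was the highest of the 10 genes in both controls. Wild-type libraries were at 33.3, 29.3 and 27.3 FPKM in the control and at 3.37, 2.88 and 3.68 FPKM with LPS+ATP. Nlrp3-/- libraries were at 21.2, 22.2 and 21.4 FPKM in the control and at 4.58, 4.69 and 4.74 FPKM with LPS+ATP. No groups overlapped, and the genotype order turned between the states. The log2 fold change was -2.85 ± 0.08 (SE) in wild-type BMDMs (adjusted p = 2.90e-11, limma) and -1.995 ± 0.08 in Nlrp3-/- BMDMs (adjusted p = 9.13e-10, limma). The interaction of 0.85 (95% confidence interval 0.61 to 1.09, adjusted p = 1.85e-04, limma) stayed under the fold limit. The genotype difference was -0.45 (adjusted p = 5.39e-04, limma) in the control and 0.40 (adjusted p = 0.00124, limma) with LPS+ATP. Hpgds is also known from mast cells, and the sum of 6 mast cell and basophil markers was 1.56 to 2.07 FPKM in wild-type control and 9.002 to 10.6 FPKM in Nlrp3-/- control BMDMs, where Hpgds was lower. With LPS+ATP the sum was 0.625 to 0.853 FPKM in wild-type and 3.91 to 4.43 FPKM in Nlrp3-/- BMDMs, where Hpgds was higher. Mcpt8 made up most of the latter sum, with a mean of 3.81 FPKM against 0.300 FPKM in wild-type, while Cpa3 was at 0.159 against 0.147 FPKM. Of the 6 markers 3 were higher in every Nlrp3-/- than in every wild-type library without stimulation and 1 with LPS+ATP. Of all tested genes 56.0% and 57.9% did not overlap in either direction. The part of these cells in the Hpgds level was not tested. Of these markers Cma1 and Tpsb2 were listed at 0 in every library.

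Tbxas1 (ENSMUSG00000029925, plus strand of GRCm38 chr6:38875404-39084585) encodes thromboxane A synthase. Wild-type libraries were at 14.1, 15.2 and 15.5 FPKM in the control and at 7.08, 7.12 and 6.58 FPKM with LPS+ATP. Nlrp3-/- libraries were at 13.1, 13.05 and 13.5 FPKM in the control and at 6.14, 6.21 and 6.40 FPKM with LPS+ATP. Stimulated libraries lay below control libraries in both genotypes. The log2 fold change was -1.01 ± 0.04 (SE) in wild-type BMDMs (adjusted p = 2.00e-09, limma) and -0.97 ± 0.04 in Nlrp3-/- BMDMs (adjusted p = 3.71e-09, limma), values on either side of the fold limit. The interaction was 0.04 (95% confidence interval -0.10 to 0.17, adjusted p = 0.707, limma), so the genotypes were not shown to differ in this response. The wild-type call was lost with upper-quartile scaling (-0.85), with median-ratio scaling (-0.71), and without wild-type control library 2 (-0.995) or 3 (-0.98) or wild-type LPS+ATP library 3 (-0.97).

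Across the 4 synthases Hpgds took 61.4% and Tbxas1 30.7% of the summed FPKM in wild-type control BMDMs, and 51.8% and 31.7% in Nlrp3-/- control BMDMs. With LPS+ATP Ptges took 97.0% in wild-type and 96.6% in Nlrp3-/- BMDMs, Hpgds 0.762% and 1.19%, and Tbxas1 1.61% and 1.60%. These shares were chosen after the values were seen and were not tested. Among these 4 genes Hpgds and Tbxas1 led in both controls, and Ptges led in both stimulated groups. The sum left out other listed terminal synthase genes, among them Ptges3 and Fam213b. In wild-type controls the means were 27.4 FPKM for Ptges3, 31.3 FPKM for Fam213b and 30.0 FPKM for Hpgds. In Nlrp3-/- controls they were 39.0, 35.3 and 21.6 FPKM, so the order holds only within the 4.

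**Figure D3:**
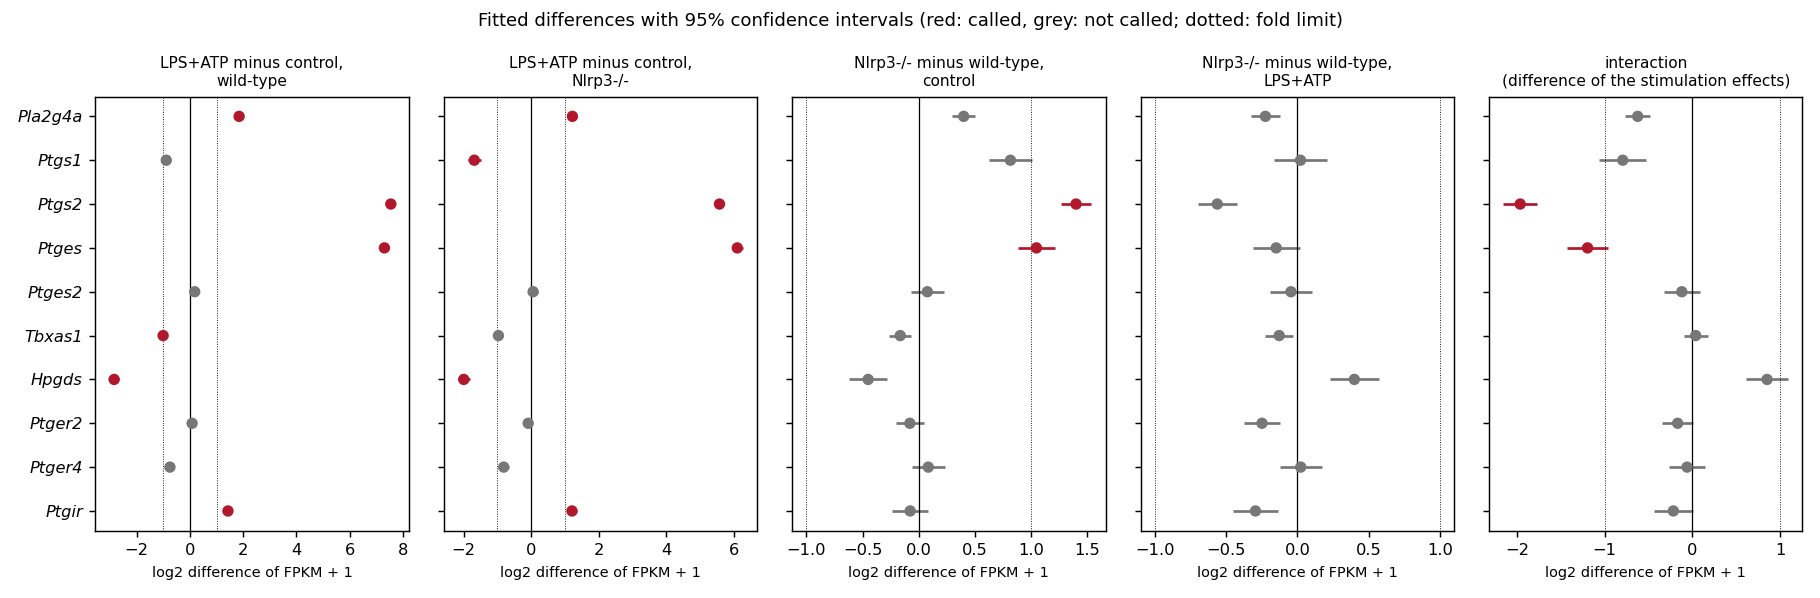
Fitted log2 differences of FPKM + 1 for the 10 genes in 5 comparisons, with points for estimates, bars for 95% confidence intervals, red for called genes and dotted lines at the fold limit. Ptgs2 and Ptges stand far to the right in both stimulation panels, at 7.54 and 7.30 in wild-type and at 5.58 and 6.10 in Nlrp3-/- BMDMs, and their interaction values of -1.96 and -1.20 are the only called ones of the 10.

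Ptger2 (ENSMUSG00000037759, plus strand of GRCm38 chr14:44988195-45003820) and Ptger4 (ENSMUSG00000039942, minus strand of GRCm38 chr15:5206661-5244187) encode EP2 and EP4, the prostaglandin E2 receptors that raise cAMP. Ptger2 was at 4.85, 4.80 and 5.36 FPKM in wild-type control and at 5.54, 5.08 and 5.42 FPKM in wild-type LPS+ATP BMDMs. Its Nlrp3-/- libraries were at 5.01, 4.74 and 4.30 FPKM in the control and at 4.33, 4.34 and 4.35 FPKM with LPS+ATP. The stimulated and control libraries overlapped in both genotypes, with log2 differences of 0.08 (95% confidence interval -0.05 to 0.21) and -0.09 (95% confidence interval -0.21 to 0.04). The second turned to 0.02 and 0.15 with upper-quartile and median-ratio scaling. With LPS+ATP the Nlrp3-/- libraries lay below the wild-type libraries by a log2 difference of -0.25 (adjusted p = 0.00401, limma), under the fold limit.

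Ptger4 was at 2.99, 3.52 and 2.94 FPKM in wild-type control and at 1.36, 1.44 and 1.59 FPKM in wild-type LPS+ATP BMDMs. In Nlrp3-/- BMDMs it was at 3.45, 3.34 and 3.39 FPKM in the control and at 1.42, 1.43 and 1.66 FPKM with LPS+ATP. Stimulated libraries were lower in both genotypes, with log2 fold changes of -0.75 ± 0.07 (SE) in wild-type (adjusted p = 1.05e-06, limma) and -0.81 ± 0.07 in Nlrp3-/- BMDMs (adjusted p = 6.51e-07, limma), under the fold limit. With a pseudocount of 0.1 the values were -1.06 and -1.13, past that limit. The ratio of the means was 0.464 and 0.443. The genotypes overlapped with LPS+ATP, and the interaction was -0.06 (95% confidence interval -0.27 to 0.15). Gm15937, on the opposite strand, holds a near copy of part of the Ptger4 transcript, and Ttc33 overlaps the gene on the opposite strand. Whether the counting used strand is not given in the sources used here, so the Ptger4 level is uncertain. Genes on the opposite strand also overlap Pla2g4a, Ptgs1, Tbxas1, Hpgds and Ptger2, and the limit of unknown strand use holds for their levels too.

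Ptgir (ENSMUSG00000043017, plus strand of GRCm38 chr7:16906490-16910905), the prostacyclin receptor, was the only one of the 3 receptors called higher with LPS+ATP. It was at 6.31, 7.12 and 6.34 FPKM in wild-type control and at 19.4, 20.02 and 18.7 FPKM in wild-type LPS+ATP BMDMs. In Nlrp3-/- BMDMs it was at 6.50, 5.38 and 6.77 FPKM in the control and at 15.0, 16.1 and 15.8 FPKM with LPS+ATP. The controls overlapped, and the stimulated Nlrp3-/- libraries lay below the stimulated wild-type libraries. The rise was 1.43 ± 0.07 (SE) on the log2 scale in wild-type (adjusted p = 7.13e-09, limma) and 1.21 ± 0.07 in Nlrp3-/- BMDMs (adjusted p = 4.12e-08, limma). The genotype difference with LPS+ATP was -0.29 (adjusted p = 0.00572, limma), under the fold limit. The interaction was -0.22 (95% confidence interval -0.44 to 0.01, adjusted p = 0.144, limma). Ptgis, the prostacyclin synthase gene, was at most 0.310 FPKM in any library.

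By level per length among the 10 genes, Hpgds and Tbxas1 led in both controls. Ptges, Ptgs2, Pla2g4a and Ptgir led, in this order, in both stimulated groups. Neighbours in these orders whose libraries overlapped were Ptgs1 and Ptgir in wild-type control and Hpgds and Ptgs1 in wild-type LPS+ATP BMDMs. In Nlrp3-/- control BMDMs they were Tbxas1 and Ptgs1, Ptger2 and Ptges, and Ptgs2 and Ptges2, and in Nlrp3-/- LPS+ATP BMDMs no neighbours overlapped. Ptgs2 was the lowest of the 10 in wild-type control BMDMs at 0.327 ± 0.138 FPKM (SD, n = 3).

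The genes whose log2 values over the 12 libraries ran most like those of Ptgs2 were Acod1 (Pearson's r = 0.9995), Cd38 (0.9991) and Slco3a1 (0.9991), given as a description because the libraries fall into stimulated and control clusters. Acod1, which makes itaconate, was at 9.13 FPKM in wild-type control, 24.2 FPKM in Nlrp3-/- control, 3206 FPKM in wild-type LPS+ATP and 1903 FPKM in Nlrp3-/- LPS+ATP BMDMs, in the same order of groups as Ptgs2. The genes most like Ptges were Map2k1 (0.9997), Mgat4a (0.9995) and Sod2 (0.9995), and those most like Ptgs1 were Rasgrp2 (0.9942), Spn (0.9920) and Jup (0.9915).

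The rest of the pathway was given by 37 further listed genes, of which 24 passed the filter. With LPS+ATP 5 of the 24 were called higher and 4 lower in the wild-type, beside 8.25% and 11.2% of all tested genes, and 5 higher and 3 lower in the knockout cells, beside 6.64% and 8.21%. Their median log2 fold change was 0.00 in wild-type and -0.09 in Nlrp3-/- BMDMs, beside the -0.26 and -0.24 of all tested genes. Without stimulation 2 of the 24 were called higher in Nlrp3-/- BMDMs and with LPS+ATP 3, beside 6.02% and 4.48% of all tested genes, and 0 were called lower in either state. Hpgd was the 1 gene of the 24 whose interaction was called, beside 2.15% of all tested genes.

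Among the genes listed for the release, reacylation or activation of arachidonate, the acyl-CoA synthetase gene Acsl1 rose by 4.16 on the log2 scale in wild-type and by 3.73 in Nlrp3-/- BMDMs. Acsl4, of the same family, had log2 fold changes of 0.80 and 0.25 and was not called in either genotype. Acsl3, of the same family, had log2 fold changes of -1.24 in wild-type and -0.70, under the fold limit, in Nlrp3-/- BMDMs, and with LPS+ATP it was 1.09 higher in Nlrp3-/- BMDMs. Of the other phospholipases A2 that passed the filter, the lysosomal Pla2g15 had log2 fold changes of -2.15 and -1.95 in the 2 genotypes. Pla2g7, which degrades platelet-activating factor, had log2 fold changes of 1.03 in wild-type and 0.52 in Nlrp3-/- BMDMs, the latter under the fold limit. Pla2g4c, a homologue of Pla2g4a, had 0.999 in wild-type, just under the fold limit, and 1.92 in Nlrp3-/- BMDMs. With LPS+ATP Pla2g4c was called higher in Nlrp3-/- BMDMs, by a log2 difference of 1.17 (adjusted p = 2.98e-06, limma). Fam213b, which encodes a prostamide/prostaglandin F synthase, had log2 fold changes of -2.22 and -2.15. The synthase gene Ptgds and the receptor gene Ptgdr were listed at 0 in every library, and Ptgis, Ptger3, Ptgdr2 and Tbxa2r did not pass the filter.

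Of the 6 tested genes for the transport and breakdown of prostaglandins, 3 were called higher and 1 lower with LPS+ATP in each genotype. The shares of all tested genes were 8.25% and 11.2% in wild-type and 6.64% and 8.21% in Nlrp3-/- BMDMs. Abcc4 and Slco3a1 were called in both, Ptgr1 and Ptgr2 only in wild-type, and Slco2a1 and Hpgd only in Nlrp3-/- BMDMs. Log2 fold changes in wild-type and Nlrp3-/- BMDMs were 0.86 and 1.82 for Slco2a1 and -0.83 and -2.55 for Hpgd. The efflux pump gene Abcc4 rose by 1.40 and 1.60 on the log2 scale in wild-type and Nlrp3-/- BMDMs, and the transporter gene Slco3a1 by 3.86 and 2.91. The reductase gene Ptgr1 had log2 fold changes of 1.31 in wild-type and 0.94 in Nlrp3-/- BMDMs. Those of Ptgr2, which has a near copy in Gm47484, were -1.01 and -0.87, and the Nlrp3-/- values of both genes were under the fold limit. The interaction was not called for Pla2g7, Pla2g4c, Acsl3, Ptgr1 or Ptgr2. For Pla2g7 (-0.51, adjusted p = 1.46e-06, limma) and Ptgr1 (-0.37, adjusted p = 3.94e-05, limma) only the fold limit was missed. The same held for Pla2g4c (0.92, adjusted p = 7.82e-04, limma) and Acsl3 (0.54, adjusted p = 2.15e-04, limma). That of Ptgr2 was 0.14 (adjusted p = 0.578, limma). The Pla2g4c interaction rests on control levels near 0 FPKM, and its ratios of the means, 8.95 and 11.5, were closer to each other than its log2 values. The uptake transporter gene Slco2a1 was at 1.09, 1.30 and 1.45 FPKM in wild-type and at 4.61, 4.49 and 4.40 FPKM in Nlrp3-/- LPS+ATP BMDMs. Its genotype difference there was 1.27 (adjusted p = 2.62e-08, limma).

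Hpgd encodes 15-hydroxyprostaglandin dehydrogenase, which inactivates prostaglandin E2. Its wild-type libraries were at 2.00, 1.57 and 0.940 FPKM in the control and at 0.430, 0.377 and 0.363 FPKM with LPS+ATP. Its Nlrp3-/- libraries were at 12.8, 12.5 and 11.5 FPKM in the control and at 1.64, 0.840 and 1.36 FPKM with LPS+ATP. The genotypes did not overlap in either state. Without stimulation the genotype difference was 2.43 ± 0.16 (SE) on the log2 scale (adjusted p = 1.77e-07, limma), and the interaction was -1.73 ± 0.22 (adjusted p = 1.73e-04, limma). The receptor gene Ptgfr was also called higher in Nlrp3-/- control BMDMs, at 2.00 ± 0.0676 FPKM against 0.489 ± 0.101 FPKM (SD, n = 3 in each), with a log2 difference of 1.01.

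**Figure D4:**
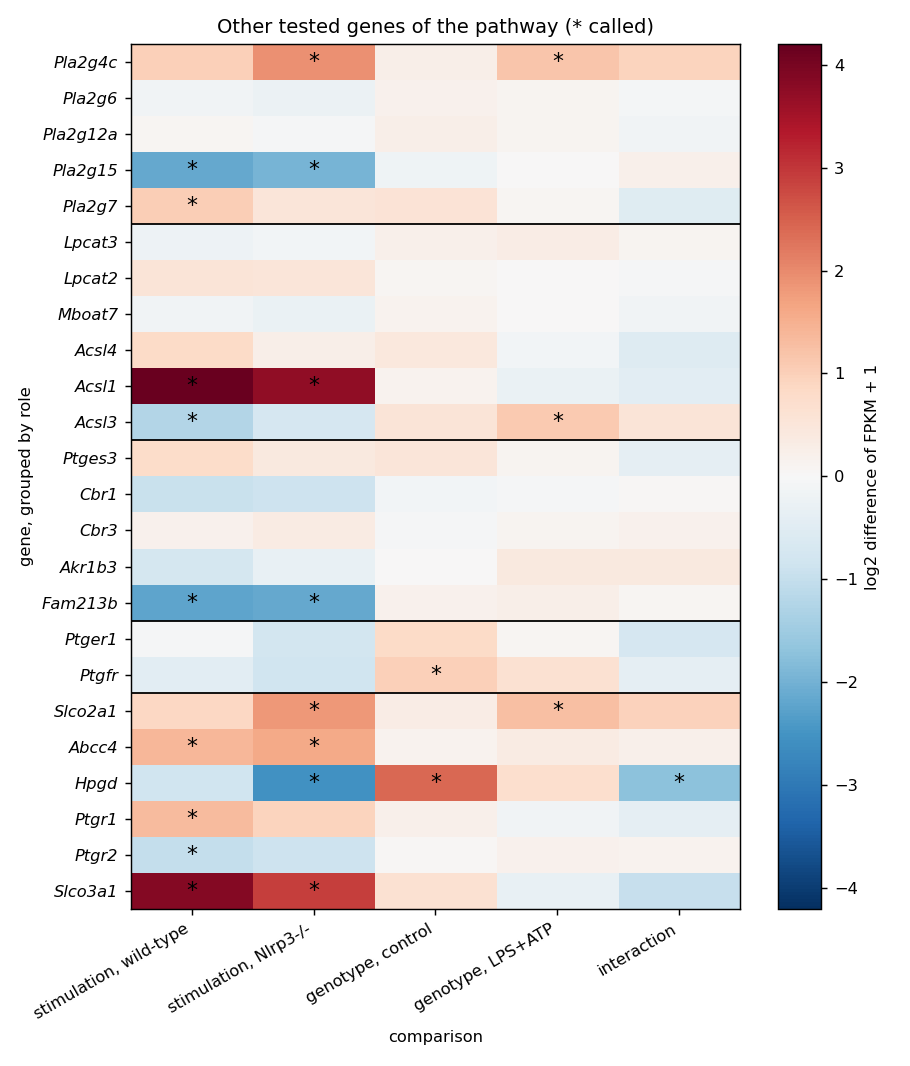
Log2 differences of FPKM + 1 for the 24 other tested genes of the pathway (rows, grouped by role with lines between roles) in 5 comparisons (columns), with red for higher, blue for lower and an asterisk for called genes. Acsl1 at 4.16 and Slco3a1 at 3.86 are the strongest rises in wild-type BMDMs, and Hpgd at -1.73 is the 1 called interaction.

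Markers of other cells moved with genotype beside these results. The counts below stand beside the 56.0% (without stimulation) and 57.9% (with LPS+ATP) of all tested genes that did not overlap between the genotypes in either direction. Of 8 fibroblast markers 8 were higher in every Nlrp3-/- library than in every wild-type library in both states, and their sum with LPS+ATP was 191 to 194 FPKM in wild-type and 928 to 944 FPKM in Nlrp3-/- BMDMs. Of 7 neutrophil and precursor markers 7 were higher in Nlrp3-/- BMDMs without stimulation and 5 with LPS+ATP. Their sum was 120.4 to 129 FPKM in wild-type control, 559 to 581 FPKM in Nlrp3-/- control, 23.0 to 26.0 FPKM in wild-type LPS+ATP and 88.3 to 96.7 FPKM in Nlrp3-/- LPS+ATP BMDMs. Sums of 5 dendritic cell markers and of 5 lymphocyte markers were at most 1.04 and 4.26 FPKM in any library. The lymphocyte sum was 0.536 to 0.917 FPKM in wild-type and 3.25 to 4.26 FPKM in Nlrp3-/- control BMDMs. Of the 5 lymphocyte markers 4 were higher in Nlrp3-/- BMDMs without stimulation and 1 with LPS+ATP. Of the 5 dendritic cell markers 3 were higher and 1 lower without stimulation, and 1 higher and 1 lower with LPS+ATP. Without stimulation Ptgs2, Ptges, Ptgs1, Pla2g4a, Hpgd and Ptgfr were higher in Nlrp3-/- BMDMs, as were the fibroblast and neutrophil markers. Hpgds (-0.45) and Tbxas1 (-0.16) were lower there on the log2 scale, under the fold limit. With LPS+ATP Ptgs2 was lower and the fibroblast markers were higher in Nlrp3-/- BMDMs. The part of these cells in the results was not tested in either state.

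**Figure D5:**
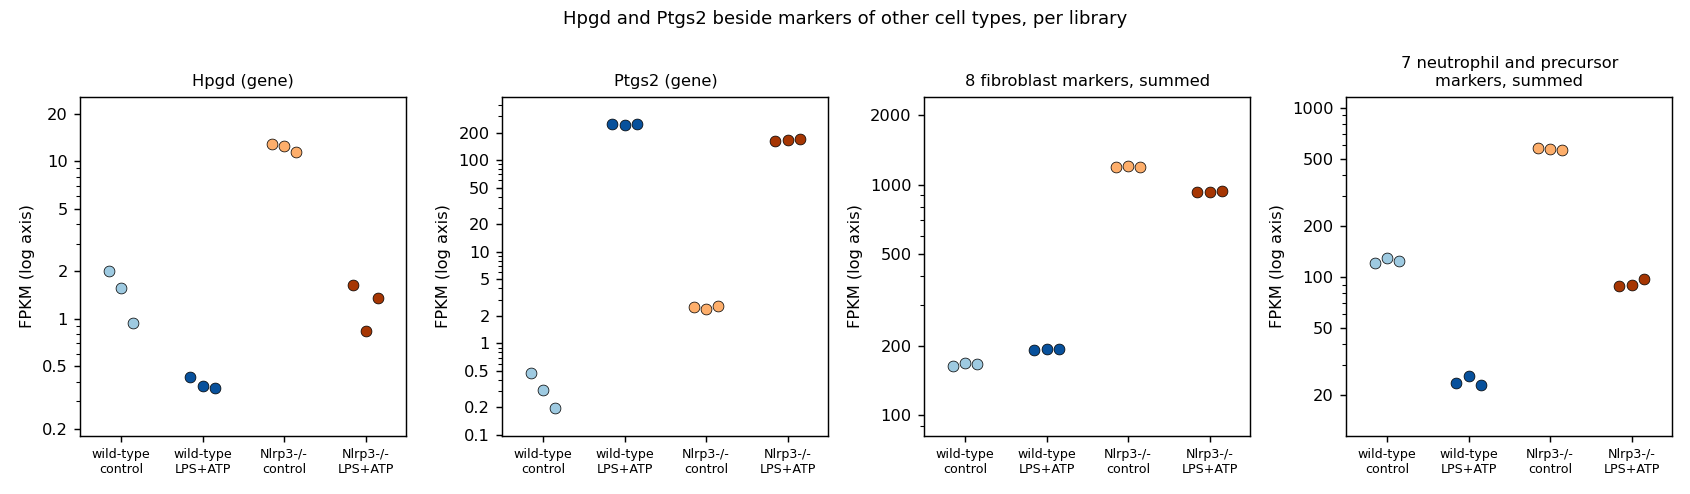
FPKM of Hpgd and Ptgs2 and summed FPKM of 8 fibroblast and 7 neutrophil and precursor markers in each of the 12 libraries on log axes, with points for libraries. The fibroblast sum is 928 FPKM or more in all Nlrp3-/- libraries and 194 FPKM or less in all wild-type libraries, and Hpgd, Ptgs2 and both sums are higher in Nlrp3-/- than in wild-type control BMDMs.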

How the data were processed

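RNA of BMDMs was extracted with Trizol and made into libraries with the Illumina TruSeq RNA kit. The authors deposited FPKM for every gene in a single table of 12 libraries, of which 0 columns remained unused. The submitters' processing notes name GRCm39 and DESeq2 1.24.0, while the aligner, counter, annotation and strandedness are not given in the sources used here. Stimulation lasted 4 hours (LPS) and 30 minutes (ATP) in the sample labels, but 12 hours and 2 hours in the methods of the study. FPKM holds no read counts, so the depth in reads is unknown. Spacing of low values put the relative depth of the libraries between 1.0 and 1.218.

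A gene entered the fit if 3 or more libraries reached 1 FPKM (12622 genes). Values of log2(FPKM + 1) were fitted by limma 3.58.1 in R 4.3.3 as 4 group means, with a variance trend, after tests on simulated data. p-values were adjusted over all tested genes. Genes named were the 10 members, Nlrp3, the called and some other genes of the pathway list, the 3 genes most like Ptgs2, Ptges and Ptgs1, and the checks. The members and lists were chosen with earlier results of these data known. Positions are from GENCODE M21 on GRCm38, in which 55154 identifiers were found, and promoter windows from RefSeq on GRCm38.p6, found for all 10 genes.

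The settings varied were the pseudocount (0.1, and 5 for genotype without stimulation and for the interaction, the latter chosen after the data were seen), the filter (none, 5 FPKM), the fold limit (none), the scaling (TPM, upper quartile, median ratio), the fit (with a replicate block, without the trend, on the compared groups only) and the libraries (leaving out each in turn).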

Additional observations from a re-analysis of the deposited data

Results flagged for a closer look

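The stimulation effect of Ptgs2 differed between the genotypes by a test of the difference itself, with an interaction of -1.96 on the log2 scale (adjusted p = 1.10e-07, limma). All 6 stimulated libraries were above all 6 controls, and in each state the 3 Nlrp3-/- libraries lay on one side of the 3 wild-type libraries. The stimulation effect of Ptges differed likewise, with an interaction of -1.20 (adjusted p = 1.23e-05, limma), and its genotypes overlapped with LPS+ATP.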

How the results depend on the processing

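With LPS+ATP the calls of Ptgs2, Ptges, Pla2g4a, Ptgir and Hpgds in both genotypes and of Ptgs1 in Nlrp3-/- BMDMs held under every alternative run, and that of Tbxas1 in wild-type BMDMs did not. The count called higher in Nlrp3-/- BMDMs without stimulation was 2 and became 1 with upper-quartile scaling, 1 with median-ratio scaling, 0 with a pseudocount of 5 (chosen after the data were seen). With no fold limit 6 passed, 4 higher and 2 lower, beside 4203 higher and 1832 lower of all 12622 tested genes. The count between the genotypes with LPS+ATP was 0 and 6 with no fold limit, and that of the interaction was 2, 1 with a pseudocount of 5 and 5 with no fold limit. A change near 0 turned its sign for Ptger2 with stimulation in Nlrp3-/- BMDMs (0.016 with upper-quartile and 0.15 with median-ratio scaling). With LPS+ATP the genotype difference turned for Ptgs1 (-0.071 and -0.13, and -0.032 to 0.060 with 1 library left out) and for Ptger4 (-0.049 and -0.094, and -0.021 to 0.062). The interaction of Tbxas1 became -0.0020 with upper-quartile scaling, and without stimulation the genotype differences of Ptges2 and Ptger4 became -0.030 and -0.033 with median-ratio scaling. With 1 library left out, the genotype difference of Ptges2 with LPS+ATP ran from -0.093 to 0.0086 and that of Ptgir without stimulation from -0.13 to 0.010. The cause was not tested. Median-ratio scaling shifted the median of all genes by 0.25 and 0.23 in the stimulation comparisons and by -0.12 and -0.15 in the genotype comparisons, and of the genes called with stimulation in wild-type BMDMs 1399 of 2275 were higher (1220 of 2307 with upper-quartile scaling), against 1041 of 2452. In Nlrp3-/- BMDMs 1093 of 1697 were higher with median-ratio scaling, against 838 of 1874. Over all tested genes, 2452, 1874, 847, 637 and 271 were called in the 2 stimulation, the 2 genotype and the interaction comparisons, which became 3702, 2847, 1428, 1406 and 634 with a pseudocount of 0.1 and 9641, 9383, 6035, 6124 and 3494 with no fold limit. With TPM the genotype and interaction counts were 1285, 1175 and 501. Genotype without stimulation had 515 calls with a filter of 5 FPKM and 253 with a pseudocount of 5, and the interaction 73 with the latter.

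The replicate numbers of the labels did not pair the libraries: over 18 same-number pairs r ran from -0.06 to 0.05, and 3 of 12 libraries correlated best with their own number. With a replicate block 6, 6, 2, 0 and 2 of the 10 genes were called in the 5 comparisons, as without it. Near 0 FPKM the depth limits what can be said of the Ptgs2 level in wild-type control BMDMs.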

Other observations

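Beside Ptgs2, 2 antisense-strand non-coding genes were looked at after their values were seen. Ptgs2os2 (minus strand of GRCm38 chr1:150159043-150164948) was at 0, 0.125 and 0 FPKM in wild-type control and at 0.360, 0.402 and 0.271 FPKM in Nlrp3-/- control BMDMs. With LPS+ATP it was at 5.81, 5.48 and 5.36 FPKM in wild-type and at 5.49, 4.84 and 5.32 FPKM in Nlrp3-/- BMDMs. It was thus higher with LPS+ATP and, like Ptgs2, higher in Nlrp3-/- than in wild-type control BMDMs, while the stimulated genotypes overlapped. Ptgs2os, whose minus-strand span at chr1:150074873-150099963 has its 5′ end inside the Ptgs2 promoter window, was listed at 0 in all 3 wild-type control libraries and was between 0.180 and 0.327 FPKM in the wild-type LPS+ATP libraries.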
